A study of Mus musculus with 16 samples.

Results

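Pou5f1 (which encodes Oct4), Sox2, Nanog, Sall4 and Utf1 are 5 genes at the centre of the network that keeps mouse embryonic stem (ES) cells pluripotent, and they were chosen by name, as 5 of 18218 genes named on the array. On the Agilent mouse array used here they were read by 6 of 41174 probes, with 2 probes for Sall4 and 1 for each of the others, and all 6 passed the filter on dim probes. The Nanog probe carries an Ensembl transcript name in the array files and was matched to Nanog through its description. Oct4 and Sox2 are transcription factors that bind side by side on DNA at many genes active in ES cells. Nanog is a homeodomain factor and Sall4 a zinc finger factor that act at many of the same genes, and Utf1 is a chromatin-associated protein whose gene is a known target of Oct4 and Sox2. ES cells are known to be sensitive to the amount of Oct4, since too little or too much of it takes them out of the pluripotent state.

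The study turned embryonic fibroblasts of C57BL/6 mice (MEF) into induced pluripotent cells (iPS cells) with a human artificial chromosome (HAC), a vector that is kept beside the host chromosomes and can be lost. It compared the expression profiles of those cells with those of ES cells on 16 arrays, 1 for each cell line. The 4 iHAC1-iPS lines (1-A3, 1-B, 1-C3 and 1-D6) carried iHAC1, which has 2 copies each of Klf4, c-Myc, Sox2 and Oct4. The 4 iHAC2-iPS lines (2-B1, 2-C6, 2-E and 2-N) carried iHAC2, which adds 2 more Oct4 copies and a p53 knockdown cassette, so that it holds 4 copies of Oct4. After loss of the vector, 4 iHAC-free lines were derived from those same iHAC2-iPS clones, F-B1 from 2-B1, F-C5 from 2-C6, F-E4 from 2-E and F-N7 from 2-N. All 12 lines have a C57BL/6 background, as do the MEFs and the ES line B6ES, whereas the ES line TT2 is C57BL/6 x CBA F1 and the retroviral iPS line 20D17 is C57BL/6 x DBA. Each iPS line is a clone, the vector factors were mouse cDNAs driven by the CAG promoter, and the methods describe culture of ES and iPS cells on feeder layers of growth-arrested MEFs, so that some RNA of each pluripotent line can come from feeder cells. MEF and 20D17 had 1 array each and therefore entered no test.

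A level here is the log2 processed signal of a probe minus the 75th percentile of its array, so that 0 is the level of a fairly bright probe, and a difference of 1 is a 2-fold difference. There were 4 slides and 2 scan sessions, and MEF, ES, 20D17 and iHAC1-iPS arrays belonged to the first session and iHAC2-iPS and iHAC-free iPS arrays to the second. For every comparison across the sessions, session and group cannot be told apart. Between 54.2% and 65.8% of spots were well above background on an array and none was saturated. The 14 fibroblast markers examined were all above background on every array, with summed linear levels of 574 in MEFs, 134 to 324 in the ES lines, 560 in 20D17, 343 to 770 in iHAC1-iPS, 160 to 416 in iHAC2-iPS and 274 to 398 in iHAC-free iPS lines. Such a sum rests mostly on the brightest markers. Only Thy1 (3.54 against 4.68) and S100a4 (4.92 against 6.11) had a lower log2 level in MEFs than in the ES mean. Lum stood at 3.15 in MEFs and 0.50 in 20D17, although the sums of these 2 were close. Of 8 further ES cell markers 7 had a probe, and their summed level was 0.356 in MEFs, 437 to 574 in the ES lines, 489 in 20D17, 1.72 to 17.5 in iHAC1-iPS, 239 to 818 in iHAC2-iPS and 494 to 610 in iHAC-free iPS lines. In the ES lines this sum rests mostly on Dppa5a, whose mean was 8.66 there and 0.16 in iHAC1-iPS lines. All 7 markers had a lower mean in iHAC1-iPS than in ES lines. The iHAC1-iPS lines were thus low for the defining ES cell markers against their label, 4 to 7 of the 7 markers being above background on these arrays. In such bulk RNA, fewer cells of a type and less RNA per cell cannot be told apart.

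The sequence behind the Pou5f1 values is shown because the vectors carry Oct4 cDNA and the signal can come from both the chromosomal gene and the vector. The probe lies at chr17:35647280-35647340 on the plus strand of mm9 as the array files list it, a span of 61 positions for a probe of 60 bases. Capitals mark the 21 bases, at positions 16 to 36 of the probe, that are also the forward primer of the study's Oct4 pair named "End". None of the other 60 primers of the study lay within any of the 6 probes.
Pou5f1 probe: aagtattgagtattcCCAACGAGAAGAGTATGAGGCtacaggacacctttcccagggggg
Whether the cDNA on the vectors carries this stretch, or those of the Sox2, Klf4 and Myc probes, is not given in the sources used here. The remaining probes are listed in mm9 at chr3:34550773-34550832 for Sox2, chr6:122664091-122664150 for Nanog and chr7:147130120-147130179 for Utf1, all on the plus strand. The Sall4 probes are at chr2:168578172-168578231 (A_51_P145260) and chr2:168574333-168574392 (A_51_P349087) on the minus strand, and no annotation of that build was at hand to place the probes in exons. Probes cannot separate a gene from processed pseudogenes of near-identical sequence, which both Pou5f1 and Nanog are known to have.

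Promoter windows are shown for Nanog and Sox2, the members with a window that held the Oct4 motif described below. Both genes were lower in iHAC1-iPS than in ES lines. Utf1 was also lower there, and its window is not shown. RefSeq windows on GRCm38.p6 were found for 4 of the 5 genes, and the 250 bases before the start site are printed. Capitals mark TTTGCAT, the core of the octamer motif that Oct4 binds, and ACAATG, a Sox motif, each searched on both strands. In the Nanog window the 1 base between the motifs is also in capitals.
Nanog, chr6:122707239-122707488, plus strand: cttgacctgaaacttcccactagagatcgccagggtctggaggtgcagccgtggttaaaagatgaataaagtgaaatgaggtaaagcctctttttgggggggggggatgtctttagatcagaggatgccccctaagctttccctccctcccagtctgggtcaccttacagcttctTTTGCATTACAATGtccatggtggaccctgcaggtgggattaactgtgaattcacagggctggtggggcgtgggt
Sox2, chr3:34649745-34649994, plus strand: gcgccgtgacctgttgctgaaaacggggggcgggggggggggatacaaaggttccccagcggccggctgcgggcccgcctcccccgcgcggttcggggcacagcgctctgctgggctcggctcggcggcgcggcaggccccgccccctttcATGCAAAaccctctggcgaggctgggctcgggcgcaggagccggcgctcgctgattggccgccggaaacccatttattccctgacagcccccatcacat
The Nanog window held the octamer core at -75 and the Sox motif at -67, with 1 base between them. That arrangement was present in 2 of 32851 RefSeq promoter windows of 300 bases (0.00609%), and both belong to Nanog, whose listed start sites overlap. Only these exact letters at this exact spacing were counted, so the count does not show how particular such a pair is to Nanog. The Sox2 window held the octamer core on the opposite strand, starting at -99. Alone, TTTGCAT was present in 4.63% and ACAATG in 12.6% of windows. The Utf1 window and the first of 2 Pou5f1 windows held neither, and the second Pou5f1 window held ACAATG at -158. A match is a description of letters in a window and not a binding site.

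All 6 probes were lower on the MEF array than in every pluripotent line. The share of all probes for which this holds is not given here. In MEFs the Pou5f1, Nanog and Sall4 (A_51_P349087) probes were not well above background, which gives bounds of at least 1374-fold, 450-fold and 1099-fold lower than the mean of the 2 ES lines. The other 3 probes were above background in MEFs, and their levels there were 15.05-fold (Sox2), 178-fold (Utf1) and 3.87-fold (Sall4, A_51_P145260) lower than in ES lines. The retroviral line 20D17 lay within 0.70 of the ES mean on the log2 scale for all 6 probes. Its differences from the ES mean ranged from -0.70 for Sall4 (A_51_P145260) to -0.09 for Nanog.

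**Figure D1:**
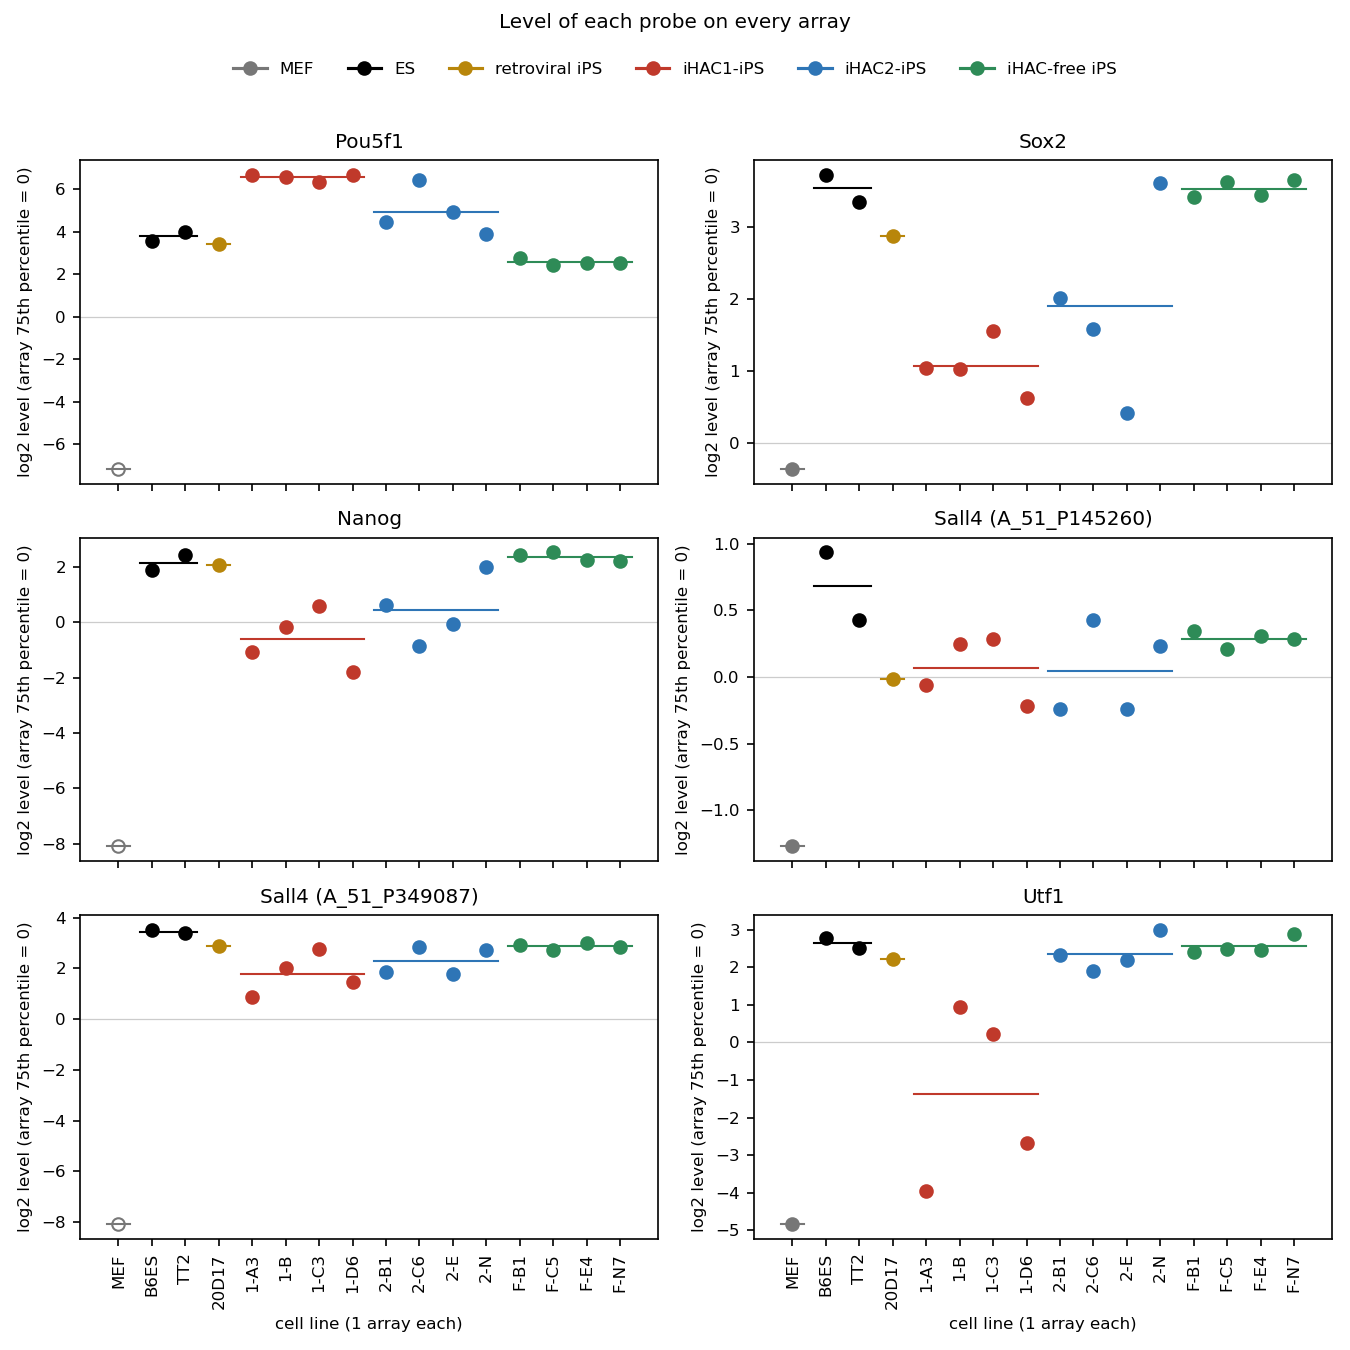
The log2 level of each of the 6 probes (vertical axes, each array's 75th percentile set to 0, scales differ between panels) is plotted for each of the 16 cell lines, 1 array each, with a horizontal line at each group's mean and open circles where the probe was not well above background. The 4 iHAC1-iPS lines lie between 6.32 and 6.67 for Pou5f1, above both ES lines, and below both ES lines on the other 5 probes. The share of all tested probes that separate these groups is not given here.

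The comparison of iHAC1-iPS with ES lines asks how far cells that keep the first vector resembled ES cells. Pou5f1 was 6.84-fold higher in the iHAC1-iPS lines, while Nanog, Sox2, Utf1 and Sall4 (A_51_P349087) were 3.20-fold to 16.1-fold lower. Of the 6 probes 5 passed the test, 1 higher and 4 lower, where the test required an adjusted p under 0.05 and at least a 2-fold difference and 14.3% of all 31423 tested probes passed it. Here and in the comparisons below, the share of all tested probes whose groups do not overlap is not given. Where groups or clones did not overlap, this only describes their levels and is no result about the members.

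Pou5f1 stood at 6.65 in 1-A3, 6.57 in 1-B, 6.32 in 1-C3 and 6.67 in 1-D6, against 3.56 in B6ES and 4.00 in TT2. The 4 clones were close to each other and well above both ES lines. The difference was 2.77 (SE 0.49, 95% interval 1.70 to 3.85, limma adjusted p = 0.00263).

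Nanog stood at -1.07 in 1-A3, -0.17 in 1-B, 0.59 in 1-C3 and -1.81 in 1-D6, against 1.91 in B6ES and 2.43 in TT2. All 4 clones were below both ES lines, but the clones spread over 2.40 on the log2 scale. The difference was -2.78 (SE 0.71, limma adjusted p = 0.0165), a 6.87-fold lower level.

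Sox2 is itself carried by the vector, and its probe was nevertheless lower, at 1.03 in 1-A3, 1.03 in 1-B, 1.56 in 1-C3 and 0.62 in 1-D6, against 3.73 in B6ES and 3.36 in TT2. The groups did not overlap. The difference was -2.48 (SE 0.61, limma adjusted p = 0.0141), or 5.59-fold. Sox2 lies within an intron of the non-coding gene Sox2ot, and of the 3 Sox2ot probes 1 (A_52_P389324) was above background in all 4 iHAC1-iPS lines, at -3.78 to -0.66, and in both ES lines, at -3.14 to -2.92.

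Utf1 showed the widest spread between clones of any member, with -3.95 in 1-A3, 0.94 in 1-B, 0.22 in 1-C3 and -2.66 in 1-D6, against 2.77 in B6ES and 2.52 in TT2. 1-A3 was near the MEF level of -4.83, while 1-B and 1-C3 were closer to the ES lines. The group difference was -4.01 (SE 1.03, limma adjusted p = 0.0172).

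The Sall4 probes differed. A_51_P349087 stood at 0.88 in 1-A3, 2.00 in 1-B, 2.75 in 1-C3 and 1.47 in 1-D6, against 3.51 in B6ES and 3.40 in TT2, a difference of -1.68 (SE 0.43, limma adjusted p = 0.0174). A_51_P145260 stood at -0.06 in 1-A3, 0.25 in 1-B, 0.28 in 1-C3 and -0.22 in 1-D6, against 0.93 in B6ES and 0.43 in TT2, and its difference of -0.62 did not pass (adjusted p = 0.0766). On both probes every clone lay below both ES lines.

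Among the iHAC1-iPS clones, 1-B and 1-C3 were higher than 1-A3 and 1-D6 for Nanog, Utf1 and both Sall4 probes. Their summed fibroblast marker levels were 377 and 343, against 572 in 1-A3 and 770 in 1-D6. The part of fibroblast RNA in these differences was not tested.

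On the slide that held ES and iHAC1-iPS arrays together, 1-D6 differed from the mean of the ES lines by 2.89 for Pou5f1, -3.97 for Nanog, -2.92 for Sox2, -5.31 for Utf1, -1.98 for Sall4 (A_51_P349087) and -0.90 for Sall4 (A_51_P145260). With slide as a block the test passed for 2 probes, Pou5f1 (adjusted p = 0.0276) and Sox2, and a fit to these groups alone passed Pou5f1, Sox2 and Nanog. Without B6ES, and likewise without TT2, Pou5f1 alone passed, the other 4 having adjusted p between 0.0572 and 0.125.

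**Figure D2:**
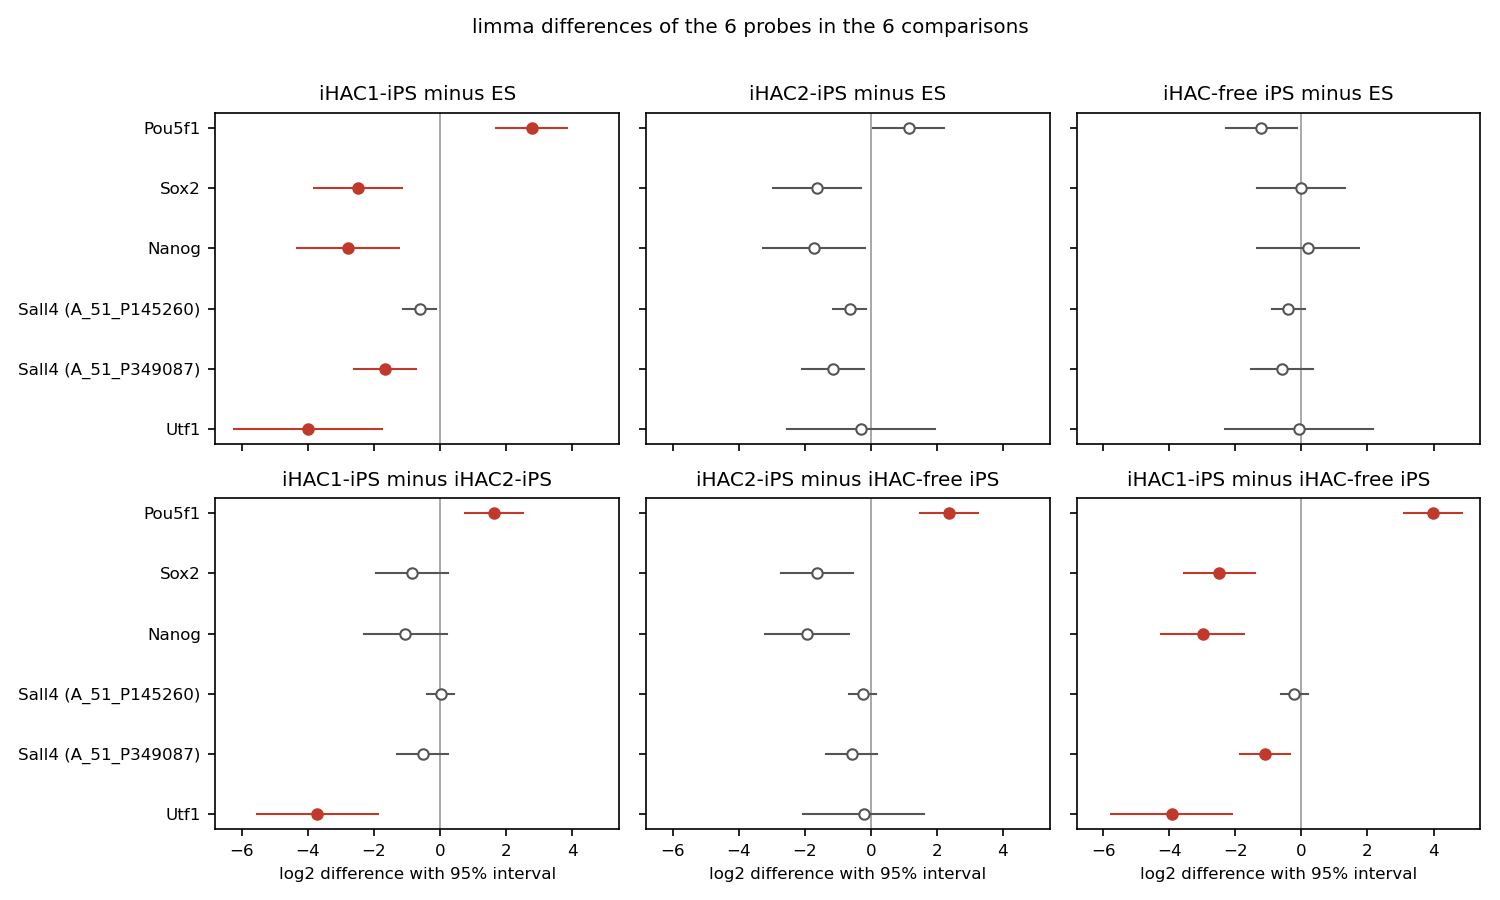
The limma log2 difference of each probe (points) with its 95% confidence interval (lines) is shown for the 6 comparisons, with filled red points where the adjusted p was under 0.05 and the difference at least 2-fold. Pou5f1 lies to the right of 0 wherever a group with a vector is compared with ES or iHAC-free lines, at 2.77, 1.15, 2.36 and 3.99.

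iHAC2-iPS lines were compared with ES lines by the same test. Their Pou5f1 mean was 2.22-fold above and their Nanog, Sox2 and Sall4 means were below those of the ES lines, but 0 of 6 probes passed, where 6.73% of all tested probes did. At an unadjusted p under 0.05 in limma there were 5 of 6 probes, where 31.1% of all tested probes were. The differences were 1.15 for Pou5f1 (95% interval 0.08 to 2.22, limma adjusted p = 0.137), -1.73 for Nanog (-3.27 to -0.19, adjusted p = 0.122) and -1.64 for Sox2 (-2.97 to -0.31, adjusted p = 0.0949). Utf1, which was low in the iHAC1-iPS lines, differed by -0.29 (-2.53 to 1.95).

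The 4 iHAC2-iPS clones were unlike each other. Pou5f1 stood at 4.47 in 2-B1, 6.41 in 2-C6, 4.94 in 2-E and 3.89 in 2-N. Nanog stood at 0.63 in 2-B1, -0.85 in 2-C6, -0.05 in 2-E and 2.02 in 2-N. 2-C6 reached the iHAC1-iPS range for Pou5f1 and 2-N lay within the ES range for both genes, and from 2-C6 to 2-E, 2-B1 and 2-N Pou5f1 fell while Nanog rose.

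Sox2 stood at 2.02 in 2-B1, 1.58 in 2-C6, 0.41 in 2-E and 3.62 in 2-N, so that 2-N was again within the ES range while 2-E was the lowest of all 15 pluripotent lines. Sall4 (A_51_P349087) stood at 1.88 in 2-B1, 2.83 in 2-C6, 1.79 in 2-E and 2.72 in 2-N, below both ES lines in each clone, with a difference of -1.15 (adjusted p = 0.0959). Sall4 (A_51_P145260) stood at -0.24 in 2-B1, 0.43 in 2-C6, -0.24 in 2-E and 0.23 in 2-N. The Sall4 probes thus ranked 2-C6 and 2-N above 2-B1 and 2-E, an order that none of the other members followed.

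Utf1 was close to the ES level of 2.52 to 2.77 in each clone, at 2.32 in 2-B1, 1.91 in 2-C6, 2.20 in 2-E and 2.99 in 2-N. Without 2-N, 3 probes passed against ES lines, with differences of 1.496 for Pou5f1 (limma adjusted p = 0.0417), -2.26 for Nanog (adjusted p = 0.0323) and -2.21 for Sox2 (adjusted p = 0.00891). 2-N also had the lowest summed fibroblast marker level of the clones, 160 against 242 to 416, and whether this bears on its levels was not tested.

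Between the vectors, Pou5f1 was 3.08-fold higher in iHAC1-iPS than in iHAC2-iPS lines although iHAC2 has more Oct4 copies, and Utf1 was 13.2-fold lower. These 2 of 6 probes passed, where 20.0% of all tested probes did. The Pou5f1 difference was 1.62 (SE 0.40, limma adjusted p = 0.00857), with 2-C6 inside the iHAC1-iPS range and the other 3 clones below it. The Utf1 difference was -3.72 (SE 0.84, limma adjusted p = 0.00548), and the groups did not overlap. Nanog differed by -1.05 (95% interval -2.31 to 0.21) and Sox2 by -0.85 (-1.93 to 0.24), with overlapping groups. Without 2-E, Sox2 passed as well, at -1.34 (adjusted p = 0.0263).

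Loss of the vector was examined by comparing iHAC2-iPS with iHAC-free iPS lines, which were read in the same session and on shared slides. Pou5f1 was 5.14-fold higher with the vector and was the 1 probe of 6 that passed, where 0.770% of all tested probes did. For Pou5f1 the iHAC-free lines stood at 2.77 in F-B1, 2.42 in F-C5, 2.55 in F-E4 and 2.51 in F-N7, all below each clone with the vector. The difference was 2.36 (SE 0.40, limma adjusted p = 0.0221).

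Each clone could be set against the line derived from it. Pou5f1 was higher in 4 of 4 clones than in the derived line, by 1.70 in 2-B1, 3.99 in 2-C6, 2.40 in 2-E and 1.37 in 2-N. Nanog was lower in 4 of 4, by -1.82 in 2-B1, -3.38 in 2-C6, -2.32 in 2-E and -0.21 in 2-N. Sox2 was also lower in 4 of 4, by -1.41 in 2-B1, -2.05 in 2-C6, -3.04 in 2-E and -0.04 in 2-N. 2-N thus changed little in Nanog and Sox2, while 2-C6 changed most in Pou5f1 and Nanog and 2-E most in Sox2.

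In the group test the Nanog difference was -1.93 (95% interval -3.19 to -0.67, limma adjusted p = 0.129) and that of Sox2 -1.63 (-2.72 to -0.55, adjusted p = 0.135), and neither passed. Sall4 (A_51_P349087) differed by -0.57, Sall4 (A_51_P145260) by -0.24 and Utf1 by -0.21. For Utf1 the clone differences ranged from -0.60 to 0.10.

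On the slide with 2-B1, 2-N and their derived lines the differences were 1.53 for Pou5f1, -1.01 for Nanog and -0.72 for Sox2. On the slide with 2-C6, 2-E and theirs they were 3.19, -2.85 and -2.54. The directions were the same on both slides. With slide as a block the Pou5f1 adjusted p was 0.110, and in a fit to these groups alone it was 0.0936. Without 2-E, or without any 1 of the iHAC-free lines, it ranged from 0.0609 to 0.0762, so the call was lost in each case at a difference of 2.32 to 2.43, whereas without 2-N Pou5f1, Nanog (-2.46, adjusted p = 0.0189) and Sox2 (-2.21, adjusted p = 0.00487) all passed.

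**Figure D3:**
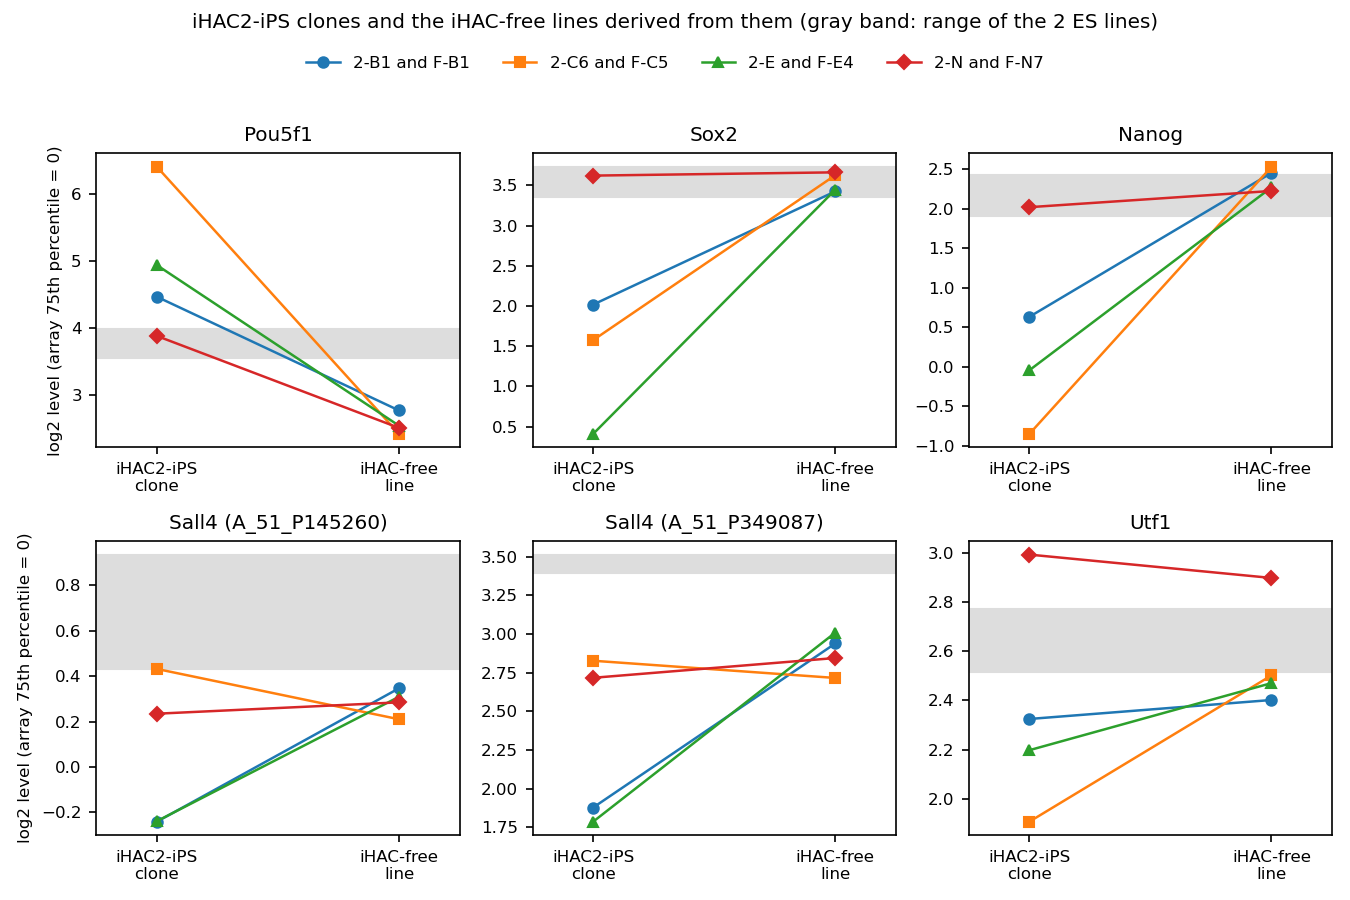
The log2 level of each probe (vertical axes, array 75th percentile set to 0, scales differ) is joined by a line from each of the 4 iHAC2-iPS clones to the iHAC-free line derived from it, and the gray band spans the 2 ES lines. Pou5f1 lines run down from 3.89 to 6.41 to between 2.42 and 2.77, below the band, and Nanog lines run up from between -0.85 and 2.02 to between 2.22 and 2.53.

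After loss of the vector the 4 lines were close to each other. The range over the 4 iHAC-free lines was 0.35 for Pou5f1, 0.24 for Sox2, 0.31 for Nanog, 0.14 and 0.29 for the Sall4 probes A_51_P145260 and A_51_P349087, and 0.50 for Utf1. In the iHAC2-iPS clones the same ranges were 2.52, 3.21, 2.87, 0.67, 1.04 and 1.09. No test of these spreads was made.

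Against ES lines 0 of 6 probes passed in the iHAC-free lines, where 0.366% of all tested probes did, and in limma 1 of 6, Pou5f1, had an unadjusted p under 0.05, as 20.5% of all tested probes had. Nanog stood at 2.45 in F-B1, 2.53 in F-C5, 2.27 in F-E4 and 2.22 in F-N7, and Sox2 at 3.43 in F-B1, 3.63 in F-C5, 3.45 in F-E4 and 3.66 in F-N7. Both genes overlapped the ES range, with differences of 0.20 for Nanog (95% interval -1.34 to 1.74) and close to 0 for Sox2 (-1.34 to 1.33). Utf1 stood at 2.40 in F-B1, 2.50 in F-C5, 2.47 in F-E4 and 2.90 in F-N7, a difference of -0.08 (-2.32 to 2.17). These intervals use a spread pooled over all groups. In a fit to the ES and iHAC-free lines alone the SE was 0.163 for Sox2, 0.193 for Nanog and 0.188 for Utf1, against 0.612, 0.708 and 1.03 in the pooled fit.

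Pou5f1 was the member farthest from the ES level in the iHAC-free lines, at -1.21 (95% interval -2.29 to -0.14, limma adjusted p = 0.194). All 4 iHAC-free lines lay below B6ES, TT2 and 20D17. Sall4 was also below both ES lines in all 4, at 2.94 in F-B1, 2.72 in F-C5, 3.01 in F-E4 and 2.84 in F-N7 on A_51_P349087 and 0.35, 0.21, 0.31 and 0.28 on A_51_P145260, with differences of -0.58 (adjusted p = 0.469) and -0.40 (adjusted p = 0.351). The other 3 members overlapped the ES lines. The share of all tested probes that do not overlap between groups of this size is not given here. These separations are therefore no result about the members, and the groups also differ in session.

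iHAC1-iPS and iHAC-free iPS lines differed by 3.99 for Pou5f1 (limma adjusted p = 4.38e-05), -3.93 for Utf1 (adjusted p = 0.00356), -2.98 for Nanog (adjusted p = 0.00202), -2.48 for Sox2 (adjusted p = 0.00253) and -1.10 for Sall4 (A_51_P349087, adjusted p = 0.0285). These 5 of 6 probes passed, 1 higher and 4 lower, where 20.1% of all tested probes did. Pou5f1 was 15.9-fold higher in the iHAC1-iPS lines. On the Sall4 probe A_51_P349087 the groups overlapped although the test was passed. The Sall4 call was lost without 1-A3, 1-D6, F-B1, F-E4 or F-N7, with differences of -1.11 to -0.80 and adjusted p of 0.0574 to 0.0793.

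The order of the group means was the same for Sox2, Nanog and Sall4 (A_51_P349087) below the ES and iHAC-free lines, with 20D17, iHAC2-iPS, iHAC1-iPS and MEF following in that order. For Sox2 and Sall4 the ES lines came first and the iHAC-free lines next, and for Nanog the reverse, and these neighbours overlapped for Sox2 and Nanog, while for Sall4 they did not overlap and did not pass the test. For Pou5f1 the order was iHAC1-iPS, iHAC2-iPS, ES, 20D17, iHAC-free iPS and MEF. iHAC2-iPS and ES, neighbours in that order, overlapped through 2-N, and iHAC1-iPS and iHAC2-iPS through 2-C6. For Utf1 the order was ES, iHAC-free iPS, iHAC2-iPS, 20D17, iHAC1-iPS and MEF, the first 3 groups overlapping.

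Across the 15 ES and iPS arrays, Pou5f1 and Nanog levels had a Pearson r of -0.92 (Spearman rho -0.91), and Pou5f1 and Sox2 an r of -0.87 (rho -0.84). Nanog and Sox2 rose together, with r 0.92 and rho 0.75. Over the 11 arrays without iHAC1-iPS the same r were -0.91, -0.76 and 0.89. The Sall4 probes had an r of 0.78 with each other over the 15 arrays. These values describe arrays that fall into groups and share sessions and derived lines, and they carry no test.

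**Figure D4:**
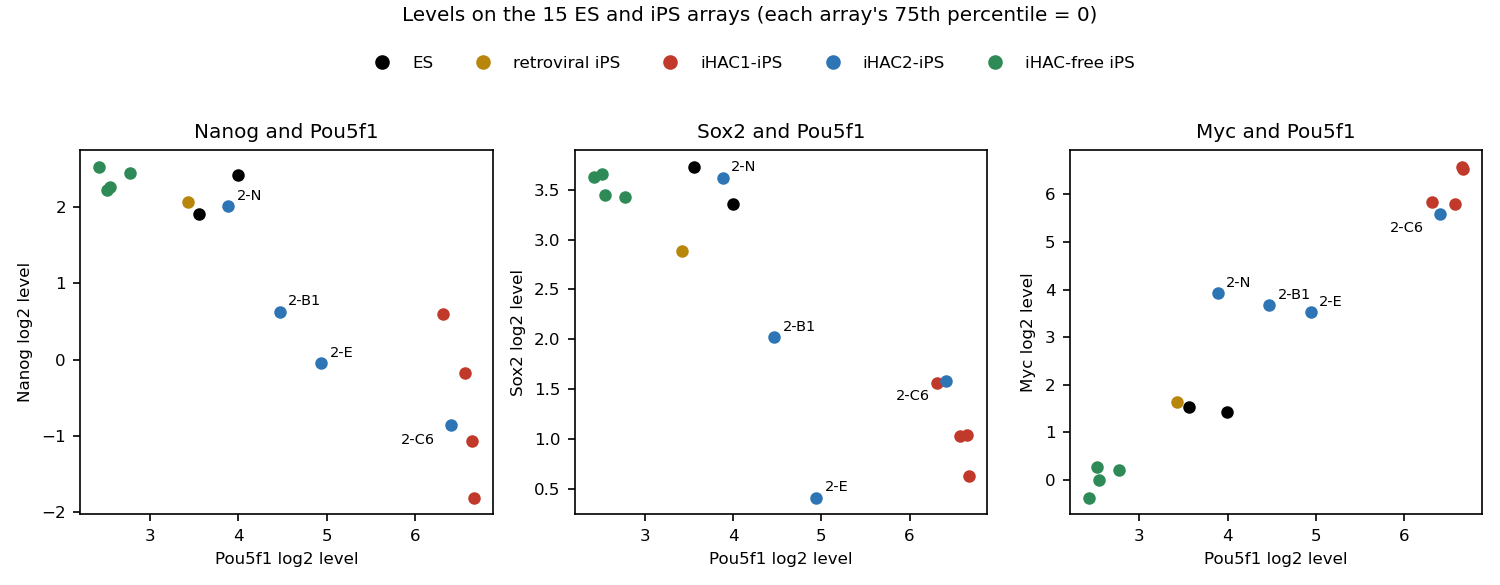
Each point is 1 of the 15 ES and iPS arrays, with the Pou5f1 log2 level on the horizontal axis and the Nanog, Sox2 or Myc log2 level on the vertical axis (array 75th percentile set to 0), coloured by group, with the iHAC2-iPS clones named. Clone 2-N lies beside the ES lines for Nanog and Sox2 and apart from them for Myc, at 3.93 against 1.42 and 1.53.

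The genes whose pattern over the 15 arrays was most like that of each member were taken from 20700 named probes by Pearson r. For Pou5f1 these were Ada (adenosine deaminase, r = 0.98), Bdh1 (a ketone body dehydrogenase, r = 0.97) and Myc (r = 0.97), the last another factor of the vectors. For Sox2 they were Dlgap3, Kat6b and Galnt9 (0.96 to 0.98), and for Nanog Cidea, Nfatc2ip and Pcnx2 (0.946 to 0.954). For Sall4 (A_51_P349087) they were Slc5a11, Fam169a and Socs2 (0.93 to 0.94), and for Utf1 Zbtb8b, Arc and Phc1, a Polycomb gene (0.98 to 0.99). With MEF included, r fell to 0.81 for Ada, 0.40 for Bdh1 and 0.61 for Myc, and it was 0.99 for Phc1. Over the 11 arrays without iHAC1-iPS the r of the Utf1 genes fell to 0.76 for Zbtb8b, 0.77 for Arc and 0.85 for Phc1, while those of the other members' genes were 0.89 to 0.97.

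Klf4 and Myc, the other factors of the vectors, moved in opposite directions. Myc (c-Myc) stood at 6.58, 5.80, 5.84 and 6.53 in 1-A3, 1-B, 1-C3 and 1-D6, at 3.67, 5.60, 3.52 and 3.93 in 2-B1, 2-C6, 2-E and 2-N, and at 1.53 in B6ES and 1.42 in TT2. All 8 lines with a vector were above both ES lines, by 4.71 for iHAC1-iPS (limma adjusted p = 0.000111) and 2.70 for iHAC2-iPS (adjusted p = 0.00891). Myc was 4.16 higher in iHAC2-iPS than in iHAC-free lines (adjusted p = 0.00134), which stood at -0.38 to 0.26, below the ES lines, and 2-C6 was the highest iHAC2-iPS clone for Myc as it was for Pou5f1. Klf4 stood at 2.09 to 2.90 in iHAC1-iPS, 2.14 to 4.65 in iHAC2-iPS, 5.04 and 5.76 in the ES lines and 5.40 to 5.97 in iHAC-free lines, so that every line with a vector was below both ES lines. The Klf4 differences were -3.08 for iHAC1-iPS minus ES (adjusted p = 0.00291), -2.33 for iHAC2-iPS minus ES (adjusted p = 0.0252) and -2.61 for iHAC2-iPS minus iHAC-free (adjusted p = 0.0254). Without B6ES or TT2 the iHAC2-iPS minus ES differences of Myc (adjusted p of 0.0663 and 0.0707) and Klf4 (0.0896 and 0.166) no longer passed, and without 2-E or any iHAC-free line the last Klf4 call was lost (0.0641 to 0.0762). With slide as a block the calls of Klf4 (adjusted p = 0.0886) and Myc (4.16, adjusted p = 0.0512) between iHAC2-iPS and iHAC-free lines were both lost, and in a fit to these groups alone that of Klf4 (0.0894).

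Some known targets of Oct4, Sox2 or Nanog were lower in the iHAC1-iPS lines, and the others did not pass the test against ES lines. Of 10 target genes 9 were tested, and 4 were lower and 0 higher than in ES lines, with a median difference of -1.83 over the list against 0.02 over all probes, of which 14.3% passed in either direction. These were Zfp42 (Rex1, a zinc finger marker of ES cells, -8.76, adjusted p = 0.000104), Dppa4 (a chromatin-associated protein of ES cells, -6.38, adjusted p = 0.00404), Zscan10 (a zinc finger factor, -3.18) and Fbxo15 (an F-box protein, -2.44). Zfp42 was above background in 2 and Dppa4 in 3 of the 4 iHAC1-iPS lines, so their low levels rest on dim spots. Against iHAC2-iPS lines, where 20.0% of all probes passed, 5 were lower, with Dppa4 at -6.08 and Zfp42 at -5.68 the farthest. Against iHAC-free lines, where 20.1% of all probes passed, 4 of 9 were lower, again Zfp42 (-7.21), Dppa4 (-6.07), Fbxo15 (-2.39) and Zscan10 (-2.20). Against ES lines the Fbxo15 call was lost without B6ES, TT2, 1-A3, 1-C3 or 1-D6 (adjusted p of 0.0869 to 0.282) and that of Zscan10 without B6ES (0.0760), and in a fit to these groups alone or with slide as a block Zfp42 was the 1 call left. The Fbxo15 call was also lost under quantile normalization (adjusted p = 0.0614) and with no filter on dim probes (0.0577). Against iHAC2-iPS lines the call of Tdgf1 was lost without 1-A3, 1-D6, 2-C6 or 2-E (adjusted p of 0.0586 to 0.0982), and without 1-A3 the count of 5 became 3. A total of 7 genes rather than 4 passed against iHAC-free lines without 1-B.

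In iHAC2-iPS lines 1 of the 9 targets passed against ES lines, Zfp42 at -3.08 (adjusted p = 0.0429), and 0 passed against iHAC-free lines in limma, where 0 had an unadjusted p under 0.05 and 18.6% of all tested probes had. The share of all tested probes that passed was 6.73% in the first and 0.770% in the second comparison. Fgf4, the tenth target, has no probe on this array. The Zfp42 call was lost without B6ES, TT2, 2-B1 or 2-E, at adjusted p of 0.0751, 0.313, 0.0819 and 0.0875. Under quantile normalization it was also lost, at a difference of -2.99 (adjusted p = 0.0526).

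Partner transcription regulators act with the core factors in ES cells. Of 14 genes 13 were tested, and in the iHAC1-iPS lines 7 were lower and 0 higher than in ES lines, with a median of -1.91 against 0.02 over all probes, of which 14.3% passed. The farthest were the nuclear receptor Esrrb (-8.63, adjusted p = 0.000437), Tfcp2l1 (-6.05, adjusted p = 0.000314), the nuclear receptor Nr5a2 (-5.84) and the Krüppel-like factor Klf5 (-3.80), with Esrrb and Nr5a2 above background in 2 of 4 iHAC1-iPS lines. Against iHAC2-iPS lines, where 20.0% of all probes passed, 5 were lower and 0 higher, with Esrrb at -7.69. Against iHAC-free lines, where 20.1% passed, 7 were lower and 0 higher, with Esrrb at -9.29. In iHAC2-iPS lines 1 of 13 was lower than in ES lines and 1 of 13 lower than in iHAC-free lines, Klf4 in both cases, which is also counted with the vector factors, and 6.73% and 0.770% of all probes passed in these comparisons. With slide as a block the Esrrb call against ES lines was lost at a difference of -10.68 (adjusted p = 0.0560), and so was that of the corepressor Trim28, another of the 7 (-1.12, adjusted p = 0.109). The Trim28 call was also lost without B6ES (adjusted p = 0.0718), and it came below 2-fold under quantile normalization (-0.90), in the value table (-0.999), and without 1-A3 (-0.96) or 1-D6 (-0.99). Trim28 is named here because its call is the least stable of the 7 over the settings tried.

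Relatives of the members by protein family did not share 1 direction. Of 9 genes 8 were tested, and in iHAC1-iPS against ES lines, where 14.3% of all probes passed, Sall1 (-2.59, adjusted p = 0.00365) and Sox15 (-2.12, adjusted p = 0.0016) were lower and Sall3 (2.41, adjusted p = 0.0446) passed in the other direction. The Sall3 call was lost without any 1 of B6ES, TT2, 1-A3, 1-C3 and 1-D6, at adjusted p of 0.0547 to 0.276. It was also lost under quantile normalization (adjusted p = 0.0533) and with no filter on dim probes (0.0536). Sall3 stood at -0.30 to 1.35 in iHAC1-iPS and at -2.46 to -1.67 in ES lines, and it also exceeded iHAC2-iPS (by 2.98) and iHAC-free lines (by 4.41). Sall2 exceeded its iHAC2-iPS level by 2.59 in iHAC1-iPS lines and its iHAC-free level by 1.47, the latter call being lost without 1-A3, 1-C3, 1-D6, F-B1, F-C5 or F-N7 (adjusted p of 0.0504 to 0.0822). In iHAC2-iPS against ES lines, where 6.73% of all probes passed, Sall2 (-2.34) and Sall1 (-2.10) were lower. Both calls were lost without B6ES or TT2 (adjusted p of 0.108 to 0.152), and that of Sall2 without 2-E (0.0555).

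Among 9 tested of 10 lineage regulators, which direct differentiation into trophoblast, endoderm, mesoderm or neural cells, the neural regulator Pax6 exceeded its ES level by 2.495 in iHAC1-iPS lines (adjusted p = 0.00686), and Cdx2, a trophoblast regulator (-4.67), and the endoderm regulator Sox7 (-2.42) were lower. These are 3 of 9 genes, where 14.3% of all probes passed. With slide as a block all 3 calls were lost, with Pax6 at 2.37 (adjusted p = 0.0515), Cdx2 at -3.60 (0.222) and Sox7 at -1.97 (0.112). Without B6ES the Cdx2 and Sox7 calls were lost (adjusted p of 0.12 and 0.146), without TT2 those of Pax6 and Sox7 (0.0567 and 0.136), and without 1-A3 that of Sox7 (0.0725). Under quantile normalization the Sox7 call was lost as well (adjusted p = 0.0604). Pax6 stood at -2.24 to -1.60 in the 4 iHAC1-iPS lines against -4.67 and -4.31 in the ES lines, and was 3.96 higher than in iHAC2-iPS and 3.76 higher than in iHAC-free lines, of which 1 and 2 lines were above background. Against iHAC2-iPS lines Gata3 was also higher (2.07), and against iHAC-free lines Hand1 was at least 4.29-fold lower, being above background in none of the iHAC1-iPS lines, a call lost without 1-A3, 1-B, 1-D6 or F-N7 (adjusted p of 0.0552 to 0.078). In iHAC2-iPS against ES lines 3 of 9 were lower and 0 higher, where 6.73% of all probes passed, Cdx2 by at least 21.6-fold (adjusted p = 0.0188), Sox7 (-2.75) and the trophoblast regulator Gata3 (-1.76). Gata3 was also lower than in iHAC-free lines, by -1.36 (adjusted p = 0.0293), a call lost with the parent clone as a block (adjusted p = 0.0667), with slide as a block (0.115), in a fit to these groups alone (0.0709), and without 2-E or any iHAC-free line (0.0611 to 0.105). Of the 3 lineage calls against ES lines in iHAC2-iPS, 0 passed without B6ES, and without TT2 those of Cdx2 and Sox7 were lost, and without 2-E that of Sox7 (0.0625). Under normexp background correction the Sox7 differences were -0.79 (iHAC1-iPS minus ES) and -0.83 (iHAC2-iPS minus ES), that of Gata3 was -0.69 (iHAC2-iPS minus iHAC-free iPS) and that of Hand1 was -0.35 (iHAC1-iPS minus iHAC-free iPS), all under 2-fold.

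In a fit to iHAC2-iPS and ES lines alone all 8 calls of these lists in that comparison were lost, at adjusted p of 0.0620 to 0.165. In the iHAC-free lines 0 of the 40 genes of these 5 lists passed against ES lines in limma, where 0.366% of all tested probes did. An unadjusted p under 0.05 in limma was found for 5 of the 40, where 20.5% of all tested probes had one. Summed trophoblast marker levels were 7.45 to 10.6 in ES, 2.19 to 4.25 in iHAC1-iPS, 2.78 to 5.83 in iHAC2-iPS and 8.88 to 12.1 in iHAC-free lines, and those of primitive endoderm markers in the same order of groups were 1.21 to 2.20, 1.07 to 2.21, 0.551 to 1.62 and 1.303 to 2.59. The trophoblast sum in ES lines rests mostly on Tfap2c (mean 2.87). Of the 6 trophoblast markers 1 passed as higher and 3 as lower in iHAC2-iPS than in ES lines, where 6.73% of all probes passed. Elf5 had a mean of -3.38 in iHAC2-iPS and -5.56 in ES lines.

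**Figure D5:**
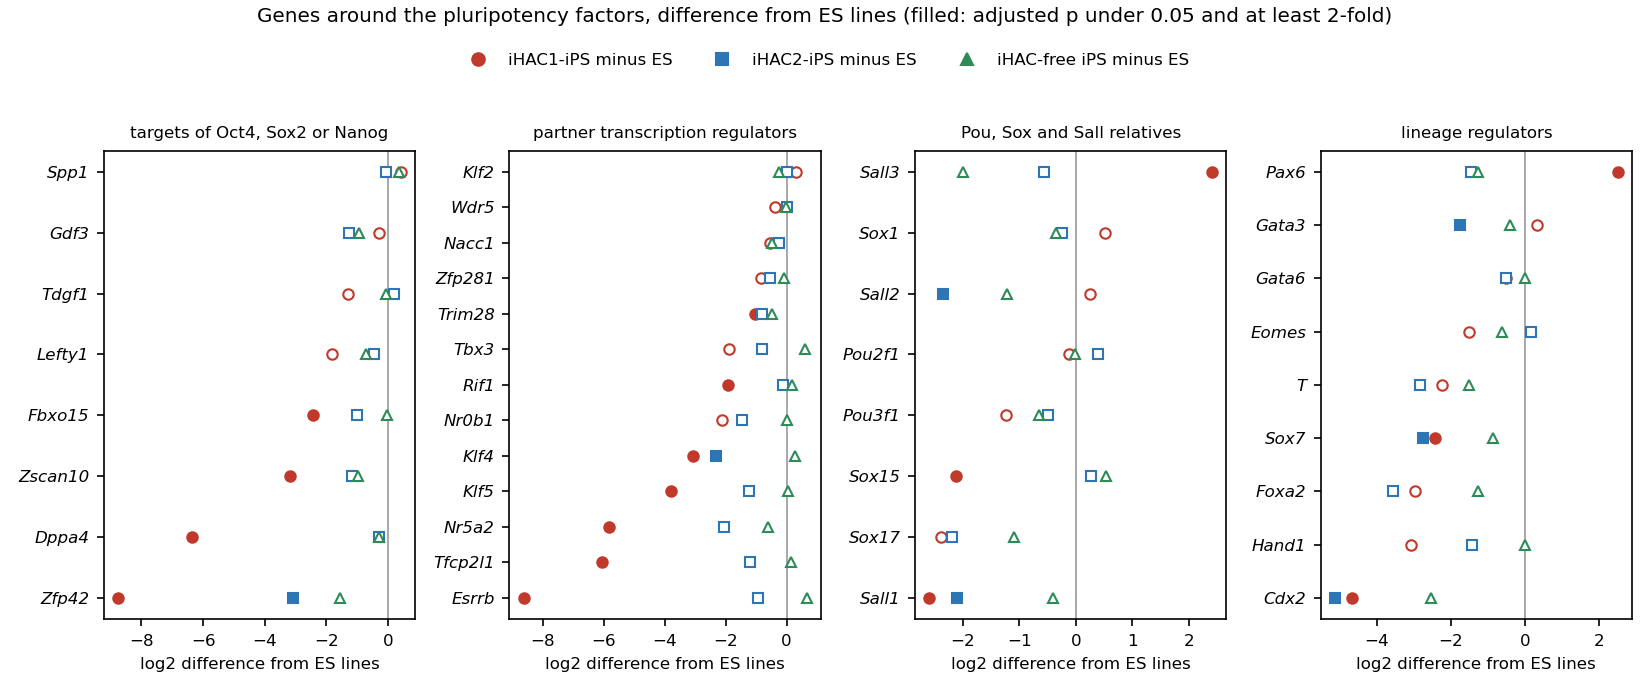
The log2 difference of the tested genes (rows, 1 target left out) from the ES lines is shown for iHAC1-iPS (circles), iHAC2-iPS (squares) and iHAC-free iPS lines (triangles), in 4 panels for the targets, partner regulators, protein family relatives and lineage regulators, filled where the test was passed. The farthest circles are those of Zfp42 at -8.76 and Esrrb at -8.63. No triangle is filled, where 0.366% of all tested probes passed in iHAC-free iPS minus ES.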

How the data were processed

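RNA of 16 cell lines was labelled with Cy3 and hybridised to Agilent 1-colour mouse arrays, 1 array per line. The deposited scanner files hold the intensity of each spot as Feature Extraction (10.7.1.1 for the first session, 10.7.3.1 for the second) processed it, and the deposited value table holds log2 values of the same arrays. The table's values are centred per probe, so differences of each other array from the first were compared. Those in the table matched those of log2 intensity with slope 1 (lowest r 1). Its scale is therefore log2 and its direction is settled, with column medians of -0.325 to 0.279. No column was left without a sample.

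From the scanner files, log2(processed signal) minus each array's 75th percentile was computed. Control spots and outlier spots were left out, and spots of a probe were averaged. 31423 probes were tested, those well above background on at least 1 array of any group. Differences were tested with limma 3.58.1 (R 4.3.3) on all groups together, with Benjamini-Hochberg adjustment over all tested probes, in 6 comparisons that share groups. A probe passed at an adjusted p under 0.05 and at least 2-fold. Tables and figures were made with Python 3.11.15, pandas 2.3.3, numpy 2.4.6, scipy 1.17.1 and matplotlib 3.10.9. The script was tested on simulated data with known differences. Of 28026 probes with a RefSeq accession 26690 were matched to a current symbol.

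The alternatives tried were background correction by normexp (offset 50), quantile normalization between arrays, the value table, other filters on dim probes, only the compared groups, slide as a block, the parent clone as a block, and leaving out each line. Replicates are separate clones or lines, and p-values measure only the spread between them. The numbering of iHAC2-iPS and iHAC-free lines pairs each line with its parent clone per the study's own table. Over 31395 probes deviations of paired lines correlated at -0.219 to 0.08, against -0.105 to 0.216 for other pairs. The number of arrays limits the precision, and arrays give no read depth.

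Every probe of the 5 members is given. From each gene list, counts are given for all genes and names for up to 4 called genes with the largest difference, beside Klf4 and Myc. Trim28 was named after its values were seen. A gene with several probes was read by the probe with the highest mean. A probe not well above background on any array of a group has only a bound, taken against the lowest signal well above background on each array. The values of 1 gene of the target list are not reported here, and it stays in that list's counts and medians. Members and lists were chosen with earlier results of these data known.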

Additional observations from a re-analysis of the deposited data

How the results depend on the processing

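The counts of members that passed did not change under quantile normalization, the deposited value table or either other filter on dim probes in any comparison. In iHAC1-iPS minus ES the count of 5 became 3 in a fit to the compared groups and 2 with slide as a fixed block, and 1 to 5 when a line was left out. In iHAC2-iPS minus ES the count of 0 was 0 to 3 when a line was left out. In iHAC2-iPS minus iHAC-free iPS the count of 1 became 3 under normexp background correction, 0 in a fit to the compared groups and 0 with slide as a fixed block, and was 0 to 3 when a line was left out. With the parent clone as a replicate block it was 1, with Pou5f1 at 2.36 (limma adjusted p = 0.0411). The block changed no call of a member. For iHAC1-iPS minus iHAC2-iPS the count was 2 to 3 and for iHAC1-iPS minus iHAC-free iPS 4 to 5 over the left-out lines. Among members, directions turned only where differences were small and no test was passed. For iHAC-free iPS minus ES, Sox2 was 0.0116 under normexp and 0.0099 in the value table, 0.13 under quantile normalization, 0.0512 with slide as a random block and -0.19 to 0.18 over the left-out lines, Nanog was -0.0571 to 0.46 over the left-out lines, and Utf1 was 0.0667 under quantile normalization, 0.0901 with slide as a random block and -0.20 to 0.0524 over the left-out lines. For iHAC1-iPS minus iHAC2-iPS, Sall4 (A_51_P145260) was -0.0113 under normexp and -0.0773 to 0.15 over the left-out lines. Over all probes the calls numbered 4483 (638 to 4690 under the alternatives) for iHAC1-iPS minus ES, 2114 (20 to 4450) for iHAC2-iPS minus ES, 115 (9 to 722) for iHAC-free iPS minus ES, 6274 (2612 to 7564) for iHAC1-iPS minus iHAC2-iPS, 242 (20 to 971) for iHAC2-iPS minus iHAC-free iPS and 6303 (2980 to 6572) for iHAC1-iPS minus iHAC-free iPS. Normexp moved the median difference of all probes to -0.16, 0.16 and 0.19 in iHAC-free iPS minus ES, iHAC2-iPS minus iHAC-free iPS and iHAC1-iPS minus iHAC-free iPS. The share of calls that were higher went from 43.5% to 54.0% under quantile normalization in iHAC1-iPS minus iHAC2-iPS, and under normexp from 47.0% to 33.9% in iHAC-free iPS minus ES and from 28.1% to 41.6% in iHAC2-iPS minus iHAC-free iPS. The cause of these changes was not tested. Dim spots limit the low iHAC1-iPS levels of some list genes.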
